A study of Mus musculus with 6 samples.

Results

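MicroRNAs known for their enrichment in nerve tissue, 8 mature identifiers at 15 loci of 1966 identifiers at 2110 loci, were followed in vesicles from mouse muscle. They were chosen by identifier: miR-7a-5p (MIMAT0000677), miR-7b-5p (MIMAT0000678), miR-9-5p (MIMAT0000142), miR-124-3p (MIMAT0000134), miR-128-3p (MIMAT0000140), miR-132-3p (MIMAT0000144), miR-153-3p (MIMAT0000163) and miR-218-5p (MIMAT0000663), with the counts of identical genomic copies summed. Small RNA was sequenced from exosomes collected from the muscle of young mice (3 libraries) and of old mice (3 libraries). The sources used here do not state strain, sex, age in months, which muscle was taken or how vesicles were isolated. They also leave unsaid whether each library came from its own mice, and p-values therefore cover the spread among these libraries alone, which may be technical. Libraries held 904892 to 1706396 counts.

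A miRNA is cut from a hairpin precursor, and 1 strand, or arm, usually persists and guides silencing of mRNAs that pair with its seed, bases 2 to 8. In the nervous system miR-124 is the classical neuronal miRNA, which lowers non-neuronal transcripts such as Ptbp1. miR-9 acts in neural progenitors and neurons, miR-132 and miR-212 are induced together by neuronal activity, and miR-218 is enriched in motor neurons. Muscle is supplied by motor and sensory axons, but axons are a small part of it, and miR-7, miR-128 and miR-218 are also made outside neurons.

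The mature sequences are shown because shared seeds and near-identity bear on which counts can be told apart. They come from RefSeq (build GRCm38.p6), 5′ to 3′, with the seed in capitals, and 7 of the 8 members matched by coordinates. miR-124-3p is named only. miR-212-3p, no member, is shown because it comes from the same transcript as miR-132.
miR-7a-5p: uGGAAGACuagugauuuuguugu
miR-7b-5p: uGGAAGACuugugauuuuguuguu
miR-128-3p: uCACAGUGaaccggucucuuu
miR-218-5p: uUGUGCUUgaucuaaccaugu
miR-153-3p: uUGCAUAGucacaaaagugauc
miR-132-3p: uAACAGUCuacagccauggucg
miR-212-3p: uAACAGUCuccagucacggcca
miR-9-5p: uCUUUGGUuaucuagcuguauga
miR-7a-5p and miR-7b-5p share a seed and differ by A10U (miR-7a base, position from the 5′ end, miR-7b base) and by 1 further base at the 3′ end of miR-7b-5p. miR-132-3p and miR-212-3p share another seed and are identical at 17 of 22 positions. The seed of miR-218-5p recurs in miR-7002-3p, which was at 0 in every library, while the seeds of miR-9-5p, miR-128-3p and miR-153-3p matched no other mature sequence in the RefSeq table, which does not cover every locus counted.

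One library, old replicate 1, differed from the rest. It was the shallowest, and miR-21a-5p, the most abundant miRNA, took 35.4% of its counts against 49.0% to 52.9% in the other 5. The muscle label was checked against 8 muscle miRNAs, whose summed level was 51154 to 60526 CPM in young and 49557 to 89547 CPM in old libraries. The highest of these was that of miR-206-3p, a skeletal muscle miRNA, with means of 50151 CPM in young and 55998 CPM in old libraries. miR-486a-5p was listed at 0 at a locus that overlaps another. Of the 2 loci of miR-1a-3p, 1 overlaps another as well, so that the muscle sum may be too low. The highest muscle sum was that of old replicate 1, where miR-206-3p was at 78491 CPM. A list of 3 red blood cell miRNAs gave a lower sum of the same order. It reached 41299 to 43092 CPM in young and 40867 to 48396 CPM in old libraries. These sums do not measure which cells released the vesicles. CPM, the usual per-million scaling of a count, was taken on library sizes adjusted by TMM. It is a relative level, not an amount per vesicle, and it was not divided by length, since all 15 loci are 20 to 24 bases long. Whether library preparation captured different sequences equally was not tested. An order or ratio of different miRNAs in CPM therefore compares sequenced counts, not amounts of RNA.

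The 8 members made up a small part of the vesicle miRNA, 0.374% to 0.565% of the counts of a library, and most of that was 1 miRNA. miR-7a-5p gave 86.3% ± 0.699 of the members' summed CPM in the young group, against 80.4% ± 3.71 in the old group (SD, 3 libraries per group). The filter on low counts left 5 members for testing and removed 3. In order of mean level over the 6 libraries the 5 were miR-7a-5p, miR-218-5p, miR-128-3p, miR-124-3p and miR-153-3p. miR-7b-5p and miR-132-3p followed near 0, and miR-9-5p could not be read.

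Neighbours in this order were mostly well apart in sequenced counts. miR-7a-5p was 8.96 times miR-218-5p, miR-218-5p was 2.4 times miR-128-3p and miR-128-3p was 2.55 times miR-124-3p in mean CPM, with ranges over the 6 libraries that did not overlap. miR-124-3p and miR-153-3p did not separate, since miR-124-3p was the higher in 4 of 6 libraries and their ranges overlapped. miR-153-3p was 10.2 times miR-7b-5p, whose own range overlapped that of miR-132-3p.

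**Figure D1:**
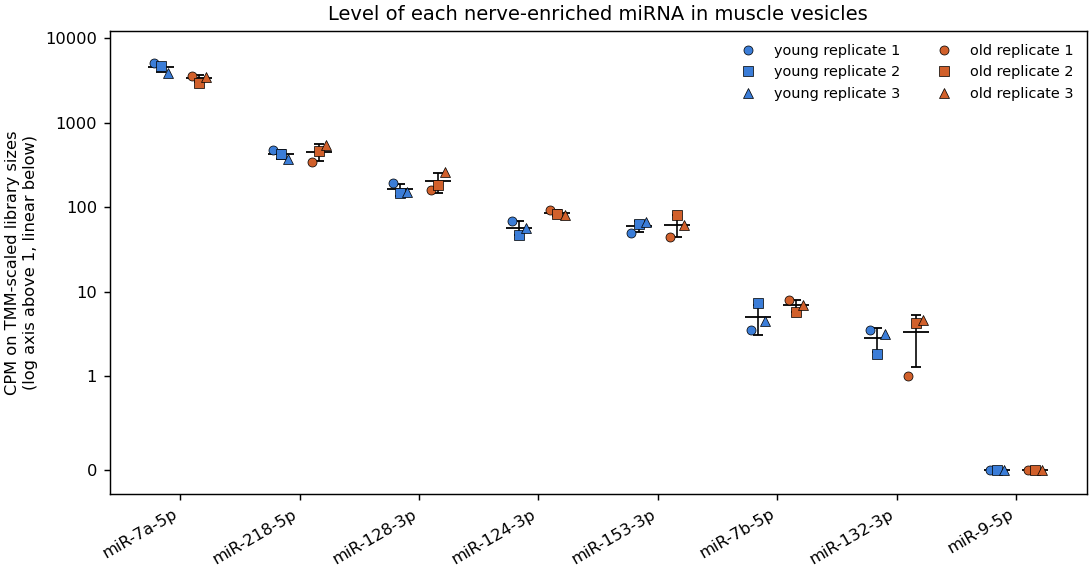
Level of each of the 8 miRNAs in every library, as CPM on TMM-scaled library sizes (log axis above 1, linear below), with the mean and SD of each group of 3 as black bars. The levels run from 2958 to 4996 CPM for miR-7a-5p down to 1.00 to 4.66 CPM for miR-132-3p, and the points of miR-9-5p at 0 stand for loci whose reads could not be counted.

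Vesicles from old and young muscle were then compared to ask which of these miRNAs differ with the age of the muscle. None of the 5 tested members passed edgeR's quasi-likelihood test after Benjamini-Hochberg adjustment over the 317 identifiers tested, where 16 were called (5.05% of those tested, 3.47% higher and 1.58% lower in old). DESeq2 called none of them either. At an unadjusted p under 0.05 were 22.4% of all tested identifiers by edgeR and 66 of 317 by DESeq2. Of the 5 members, each tool gave 2, miR-7a-5p and miR-124-3p. These 2 were also the members whose groups did not overlap, miR-7a-5p lower and miR-124-3p higher in old, where groups did not overlap for 26.2% of all tested identifiers (13.6% with old higher, 12.6% with old lower). The median log2 fold change of the 5 was 0.10, beside 0.05 over all tested. In bulk vesicle RNA, fewer cells of a type and less RNA per cell cannot be told apart.

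miR-7a-5p, which in neurons and endocrine cells lowers transcripts such as that of alpha-synuclein, ranked 30th by mean CPM of 891 identifiers with a count. Its CPM was 4996, 4619 and 3867 in young replicates 1, 2 and 3, and 3597, 2958 and 3459 in old replicates 1, 2 and 3. Every old library lay below every young one. The means were 4494 ± 575 for young and 3338 ± 336 for old vesicles (SD, 3 libraries per group), a ratio of 0.743 with a 95% interval of 0.585 to 0.943. By edgeR the log2 fold change was -0.43 ± 0.17 (SE, adjusted p = 0.147), so that the difference did not pass. Without old replicate 1 it was -0.46 and passed (edgeR adjusted p = 0.0291, range 0.0291 to 0.372 over all alternatives), in a fit where 49 of 330 identifiers were called (14.8%).

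The mature miR-7a-5p has copies in a pair of hairpins, shown here with both mature arms in capitals, because the 5p arm is identical in them and the 3p arm is not. Mir7-1 lies in an intron of Hnrnpk, a broadly expressed RNA-binding protein gene (GRCm38 chr13:58392779-58392886, minus strand), and Mir7-2 between genes of the annotation (GRCm38 chr7:78888277-78888373, plus strand).
Mir7-1: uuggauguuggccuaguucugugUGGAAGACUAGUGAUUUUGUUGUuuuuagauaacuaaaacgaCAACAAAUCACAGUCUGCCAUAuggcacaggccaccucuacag
Mir7-2: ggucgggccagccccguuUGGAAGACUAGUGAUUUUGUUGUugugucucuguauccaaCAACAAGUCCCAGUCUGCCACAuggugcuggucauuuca
The deposited counts of the 5p arm were split almost evenly, with 50.2% to 53.0% at Mir7-1 in the 6 libraries, so that neither locus can be credited with them. The 3p arms differ in sequence, and there the loci did separate. miR-7a-1-3p of Mir7-1 had 454 counts over all libraries and miR-7a-2-3p of Mir7-2 had 0, which allows up to 1.82 to 3.00 CPM per library (3 counts, counting error only).

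The partner strand of miR-7a-5p showed no difference that passed the test. The level of miR-7a-1-3p was 56.1, 57.5 and 42.5 CPM in young replicates 1, 2 and 3 and 76.9, 52.0 and 48.2 CPM in old replicates 1, 2 and 3, and its groups overlapped. Its log2 fold change was 0.17 ± 0.27 (SE, edgeR adjusted p = 0.80), with a 95% interval of -0.40 to 0.74, and it was -0.03 without old replicate 1. As a share of both arms it was 1.14% ± 0.0758 in young and 1.73% ± 0.36 in old vesicles (SD, 3 libraries per group). The 3 old shares, 1.37% to 2.09%, all lay above the young shares of 1.09% to 1.23%. For this and 9 other shares compared between the groups, a two-sided exact permutation test of 3 against 3 cannot give a p below 0.1, which this one gave (0.25 adjusted over the 10).

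miR-7b-5p, from a locus of its own between genes (chromosome 17, 56243017 to 56243040, mm10), had 5, 12 and 7 counts in young and 8, 8 and 9 in old replicates 1, 2 and 3. That was 0.148% of the counts of miR-7a-5p and miR-7b-5p together (95% exact binomial interval 0.110% to 0.196%, counting error only). The share was 0.0702% to 0.157% in young and 0.192% to 0.222% in old libraries, without overlap (exact permutation p = 0.1, the smallest possible, 0.25 adjusted over the 10 shares). The members of this pair differ at 1 internal base, and the mismatches allowed in alignment were not stated in these sources. It did not pass the filter, and with no filter its log2 fold change was 0.40 (edgeR adjusted p = 0.808).

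miR-124-3p, the neuronal marker of the set, was present at a low level. The counts were 97, 77 and 90 in young and 93, 117 and 104 in old replicates 1, 2 and 3. In CPM these were 68.1, 46.6 and 57.1 in young and 92.9, 83.3 and 80.8 in old, and every old library was above every young one. The means were 57.3 ± 10.7 and 85.7 ± 6.36 CPM (SD, 3 libraries per group), a ratio of 1.5 with a 95% interval of 1.04 to 2.15. The log2 fold change of 0.58 ± 0.25 did not pass (SE, edgeR adjusted p = 0.167), nor did it without old replicate 1 (0.55, edgeR adjusted p = 0.130).

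Its counts were placed at 3 loci, Mir124a-1 in an exon of Mir124a-1hg (chromosome 14, 64590709 to 64590728, mm10), Mir124a-2 in an intron of Mir124-2hg (chromosome 3, 17795723 to 17795742) and Mir124a-3 between genes (chromosome 2, 180894083 to 180894102). Over all libraries these took 33.0%, 33.4% and 33.6% of them. The mature identifier is the same at each, so that no locus can be credited with the counts. The share at Mir124a-3 was 24.4% to 32.5% in young and 35.5% to 40.4% in old libraries, without overlap (exact permutation p = 0.1, the smallest possible, 0.25 adjusted over the 10 shares). At Mir124a-1 the direction was opposite, 34.0% to 39.0% in young and 29.0% to 31.7% in old (exact permutation p = 0.1, 0.25 adjusted). As parts of the same counts, shares at the 3 loci depend on one another. The intervals of single libraries were wide, such as 16% to 34.6% for the lowest of these shares. The 5p arm had 1 count in all, at Mir124a-3, and its locus at Mir124a-2 overlaps another.

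Other neuronal markers did not add to this. The list for neurons held miR-124-3p, miR-9-5p, miR-9-3p and miR-137-3p, with a summed level of 46.6 to 68.8 CPM in young and 81.6 to 92.9 CPM in old libraries that was almost wholly miR-124-3p. miR-137-3p had 2 counts in all, and both arms of miR-9 were at 0. The glial list, miR-219a-5p and miR-338-3p, was also at 0 in every library, at loci that all overlap another. In the same libraries 3 of the 5 tested muscle miRNAs of the list were higher in old by the test, beside 3.47% of all tested identifiers. Among them was miR-133a-3p (log2 fold change 1.10, edgeR adjusted p = 0.000728). The most abundant of the 5, miR-206-3p, did not pass (log2 fold change 0.16, edgeR adjusted p = 0.765). The part of these differences in the values of miR-124-3p was not tested.

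For miR-9-5p the table gives no measurement. Each of its 3 loci, at Mir9-1, Mir9-2 and Mir9-3, overlaps miR-9b-3p on the opposite strand by 21 bases, and the counting command leaves a read over 2 features unassigned. The antisense entry is shown because miR-9-5p contains its exact reverse complement over 21 of 21 positions, with the seed again in capitals.
miR-9b-3p: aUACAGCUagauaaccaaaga
The same holds for miR-9-3p, which overlaps miR-9b-5p by 19 bases at each locus. The 0 therefore says nothing of the amount in the vesicles, and no upper limit can be given. Of 106 overlapping loci in the table, 104 were at 0.

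For miR-218-5p and miR-128-3p, also made outside neurons, the groups overlapped and the difference did not pass the test. miR-218-5p lies in introns of Slit2 (Mir218-1, chromosome 5, 48223966 to 48223986, mm10) and Slit3 (Mir218-2, chromosome 11, 35616840 to 35616860), genes of secreted axon guidance ligands. Its CPM was 474, 425 and 370 in young and 346, 462 and 545 in old replicates 1, 2 and 3. Both the lowest and the highest library were old. The means were 423 ± 52.1 and 451 ± 100.4 CPM (SD, 3 libraries per group), with a ratio of 1.07 and a 95% interval of 0.802 to 1.42 (log2 fold change 0.10 ± 0.20 SE, edgeR adjusted p = 0.847). Counts were split evenly between the copies, with 48.3% to 52.3% at Mir218-1. The 3p arm, whose sequence differs between the hairpins, had 12 counts from Mir218-1 and 0 from Mir218-2.

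miR-128-3p lies in introns of R3hdm1 (Mir128-1, chromosome 1, 128202404 to 128202424, mm10) and of Arpp21 (Mir128-2, chromosome 9, 112118644 to 112118664), the latter a neuronal phosphoprotein gene. Its CPM was 194, 146 and 150 in young and 159, 184 and 262 in old replicates 1, 2 and 3. Old replicate 3 was the highest, and the groups overlapped. The means were 163 ± 26.3 and 201 ± 53.7 CPM (SD, 3 libraries per group), with a ratio of 1.24 and a 95% interval of 0.890 to 1.72 (log2 fold change 0.31 ± 0.23 SE, edgeR adjusted p = 0.491). Leaving out old replicate 3 gave a log2 fold change of 0.08 (edgeR adjusted p = 0.930), and leaving out old replicate 1 gave 0.47 (edgeR adjusted p = 0.0924).

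The counts of miR-128-3p were placed unevenly over its copies, which share 1 mature identifier and so cannot be told apart by it. Mir128-1 took 55.4% to 61.4% of its counts in the 6 libraries, and 58.7% over all of them (885 of 1508 counts, 95% exact binomial interval 56.2% to 61.2%, counting error only). All 6 libraries gave Mir128-1 the larger share, and the share did not separate the groups (exact permutation p = 0.4). The 5p arms, which differ between the hairpins, had 0 counts at Mir128-1 and 1 at Mir128-2, so that they do not show which hairpin was the source.

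**Figure D2:**
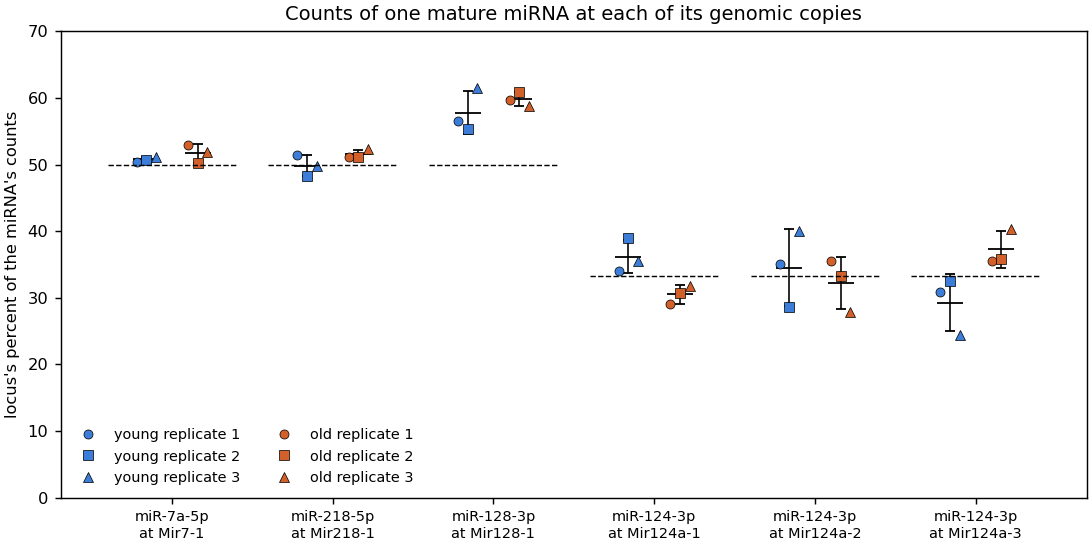
Percent of the counts of a mature miRNA found at the named genomic copy in each library, with the mean and SD of each group of 3 as black bars and an even split as a dashed line. miR-7a-5p and miR-218-5p lie close to 50%, and Mir128-1 lies above it in all libraries. In all old libraries the share of miR-124-3p is higher at Mir124a-3 and lower at Mir124a-1 than in any young one.

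miR-153-3p, which targets synaptic transcripts and lies in an intron of Ptprn2, a gene of dense-core vesicles (chromosome 12, 117250860 to 117250881, mm10), had a level close to that of miR-124-3p from a single locus. Its CPM was 49.8, 62.9 and 66.0 in young and 43.9, 80.5 and 62.1 in old replicates 1, 2 and 3. The old range enclosed the young one. The means were 59.6 ± 8.61 and 62.2 ± 18.3 CPM (SD, 3 libraries per group), with a ratio of 1.05 and a 95% interval of 0.706 to 1.56 (log2 fold change 0.07 ± 0.27 SE, edgeR adjusted p = 0.910). Its 5p arm had 8 counts, all in young libraries, 7 of them in young replicate 2.

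miR-132-3p was the least abundant member that could be counted, but the other arm of its hairpin was not rare. The hairpin is shown with both arms in capitals because the counts fell mostly on the 5p one. It lies in an intron of 1700016P03Rik (GRCm38 chr11:75173682-75173747, plus strand), which also holds Mir212.
Mir132: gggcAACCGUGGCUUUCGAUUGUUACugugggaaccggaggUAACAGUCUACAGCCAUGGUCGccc
miR-132-3p had 5, 3 and 5 counts in young and 1, 6 and 6 in old replicates 1, 2 and 3, and it was not tested. miR-132-5p had 530 counts in all, so that the 3p arm made up 4.68% of the 556 counts of the hairpin (95% exact binomial interval 3.08% to 6.78%, counting error only). The share was 0.990% to 6.10% in the 6 libraries, so that most counts lay on the 5p arm in each. The 3p arm is the one usually kept as guide, and with neither locus overlapping another, the low 3p count stands as a property of the deposited table. Trimming and aligner settings are not stated in these sources and their part in it was not tested, so the share is not a measure of which arm the vesicles held.

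From the same transcript, miR-132-5p and miR-212-3p were higher in every old library than in any young one, as were 13.6% of all tested identifiers. Neither of these arms passed the test, and miR-212-5p had only 28 counts. The level of miR-132-5p was 70.2, 29.1 and 48.9 CPM in young and 99.9, 72.7 and 80.0 in old replicates 1, 2 and 3, a ratio of 1.71 (log2 fold change 0.77 ± 0.30 SE, edgeR adjusted p = 0.147). Young replicate 1 came close to the old libraries. For miR-212-3p, which carries the seed of miR-132-3p, the level was 29.5, 18.2 and 35.6 CPM in young and 54.9, 54.9 and 49.7 in old replicates 1, 2 and 3. This was a ratio of 1.92 (log2 fold change 0.94 ± 0.30 SE, edgeR adjusted p = 0.0737), and without old replicate 1 it passed with a log2 fold change of 0.95 (edgeR adjusted p = 0.0278, with 14.8% called in that fit and 0.0278 to 0.288 over all alternatives that gave one). Of the counts of the pair, miR-212-3p took 36.7% ± 6.44 in young and 38.9% ± 3.8 in old vesicles (SD, 3 libraries per group), and these shares overlapped.

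**Figure D3:**
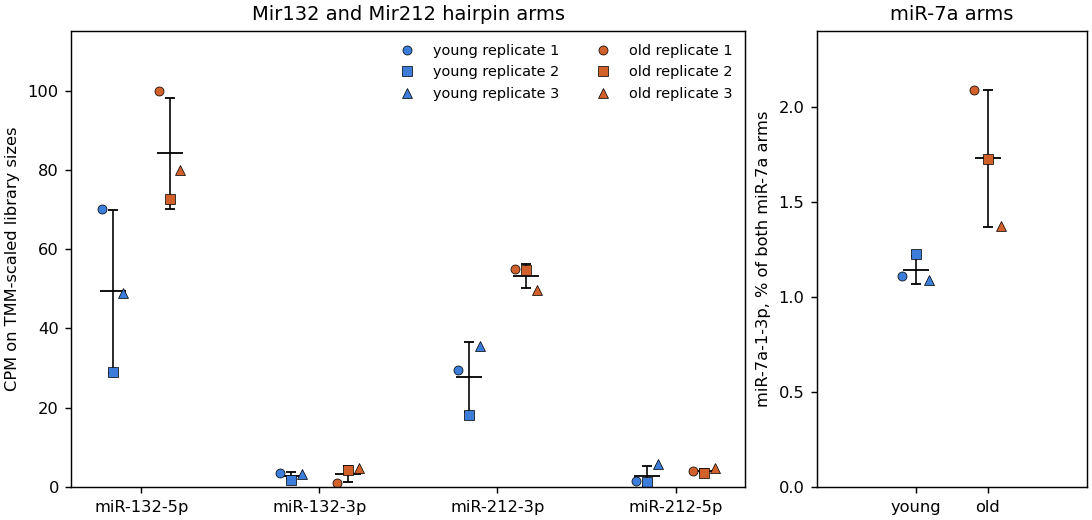
Left, CPM on TMM-scaled library sizes of the arms of the Mir132 and Mir212 hairpins in each library. Right, miR-7a-1-3p as a percent of the counts of both miR-7a arms; black bars are the mean and SD of 3 libraries. miR-132-5p and miR-212-3p lie well above miR-132-3p, at 1.00 to 4.66 CPM, and in the old libraries each lies above its own young values.

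A further list of 30 nerve-enriched miRNAs gave the wider picture. It was chosen from general knowledge but with earlier results of these data known, and it includes miR-212-3p, given above. Of the 30, 11 were tested and none passed edgeR's test after adjustment. By edgeR 3 of the 11 had an unadjusted p under 0.05, beside 22.4% of all tested identifiers. DESeq2 also gave 3 at an unadjusted p under 0.05, beside 66 of all 317 tested. It called none of the 11, but it left 9 of them without an adjusted p. The median log2 fold change was 0.12, beside 0.05 over all tested identifiers, with 7 values above and 4 below 0. In every library 9 of the 30 were at 0, and 4 of these have only loci that overlap another. The groups did not overlap for miR-212-3p, miR-135b-5p and miR-135a-5p, each higher in old, beside 26.2% of all tested identifiers in either direction.

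The 4 most abundant tested entries of that list differed in sign and none passed, with values below 0 for miR-149-5p and miR-183-5p and above 0 for miR-212-3p, given above, and miR-383-5p. The level of miR-149-5p was 6131 ± 905 CPM in young and 4834 ± 1346 CPM in old vesicles (SD, 3 libraries per group; log2 fold change -0.34 ± 0.20 SE, edgeR adjusted p = 0.302). miR-183-5p, a miRNA of sensory organs, had 2305 ± 482 and 1650 ± 412 CPM (SD, 3 libraries per group; log2 fold change -0.48 ± 0.20 SE, edgeR adjusted p = 0.154). miR-383-5p, at 24.7 ± 9.88 and 26.9 ± 1.17 CPM, had a log2 fold change of 0.13 ± 0.35 (SE, edgeR adjusted p = 0.875). miR-135b-5p, with 16.3 ± 4.88 and 29.7 ± 1.99 CPM, was named after its values were seen (log2 fold change 0.86 ± 0.35 SE, edgeR adjusted p = 0.152).

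**Figure D4:**
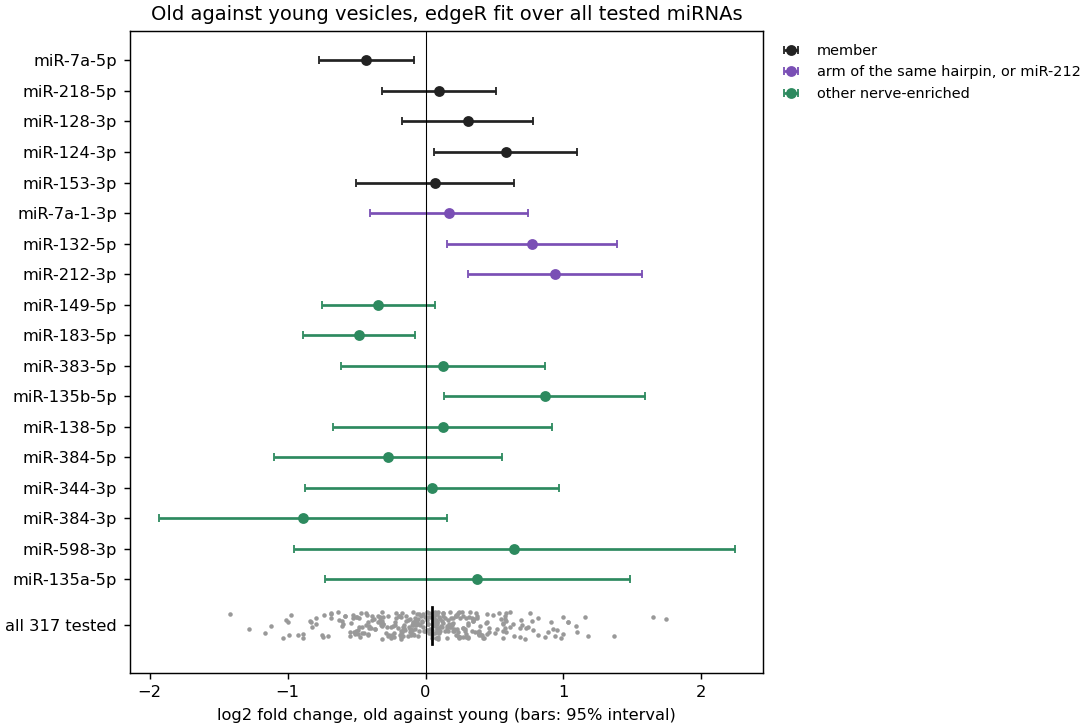
Log2 fold change of old against young vesicles with its 95% interval for the 5 tested members (black), the tested products of the same hairpins and miR-212 (purple) and the other tested nerve-enriched miRNAs (green), above the values of all 317 tested identifiers (grey points, median as a black line). Intervals of miR-7a-5p and miR-183-5p lie below 0 and those of miR-124-3p, miR-132-5p, miR-212-3p and miR-135b-5p above it, before any adjustment over the identifiers tested.

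As a description of likeness, each of the 5 tested members was set beside all other tested identifiers by the root-mean-square difference of mean-centred log2 CPM over the 6 libraries. The nearest to miR-7a-5p were miR-10a-5p (0.091) and miR-222-3p (0.124), where the median over all tested was 0.415. Both had negative log2 fold changes, of -0.59 and -0.49, which did not pass (edgeR adjusted p = 0.147 and 0.122). miR-218-5p was nearest to miR-99a-5p (0.062) and miR-181c-5p (0.111). miR-128-3p came closest to miR-744-3p (0.075) and let-7a-1-3p (0.092). miR-124-3p lay nearest to miR-30d-3p (0.133) and miR-378c (0.135), and miR-153-3p to miR-186-5p (0.148) and miR-411-3p (0.149).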

How the data were processed

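The deposited values are unnormalized counts for each mature miRNA locus in 3 young and 3 old libraries. Per the file headers they were made with featureCounts (version 2.0.6), with no option for strand, overlapping features or multi-mapping reads. The authors aligned reads with BWA to mm10, per the submitters' processing notes with settings that these sources do not state. Loci were named by exact coordinates in the RefSeq miRNA table (1734 of 2110), otherwise from the GENCODE M21 miRNA gene that holds them. Counts were summed per identifier and tested with edgeR version 4.0.16 (R 4.3.3; quasi-likelihood, two-sided, filterByExpr with a minimum count of 10 and total of 15, TMM, no covariate), with Benjamini-Hochberg adjustment over 317 identifiers and a threshold of 0.05. The standard error was derived from the test, as the size of the fold change fitted without shrinkage over the root of the F statistic. Intervals used this standard error. DESeq2 version 1.42.0, other scalings, no filter, single loci, a replicate block and leaving out each library were alternatives. The fit was tested on simulated data. Replicate numbers are not said to pair libraries and were not used as pairs in the main fit (see the closing section). Named were all 8 members, products of their hairpins and miR-212, the 4 most abundant tested entries of the further nerve list and any past the threshold, and 2 like miRNAs per member of at least 20 CPM. Members and lists were chosen with earlier results of these data known.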

Additional observations from a re-analysis of the deposited data

How the results depend on the processing

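Each tested member's log2 fold change was recomputed under 12 alternatives. Leaving out each library in turn gave -0.51 to -0.34 for miR-7a-5p, 0.47 to 0.69 for miR-124-3p, 0.08 to 0.47 for miR-128-3p, -0.06 to 0.28 for miR-218-5p and -0.16 to 0.28 for miR-153-3p. The sign turned for miR-218-5p without old replicate 3 (-0.057) and for miR-153-3p without old replicate 2 (-0.16) or young replicate 1 (-0.071), and the only member called in any of these fits was miR-7a-5p without old replicate 1 (adjusted p = 0.0291 by edgeR, range 0.0291 to 0.372). The cause was not tested. Under the other 6 alternatives every member kept its sign and none was called, with -0.44 to -0.39 for miR-7a-5p and 0.57 to 0.94 for miR-124-3p. The highest is its locus Mir124a-3, taken for its 194 counts against 193 and 191 at the others; Mir124a-1 gave 0.36 and Mir124a-2 gave 0.48, and none of the 3 was called. The number of identifiers called was 16, with 4 to 49 when a library was left out (49 and 4 on omitting old replicates 1 and 2, and 5, 7 and 6 on omitting young replicates 1, 2 and 3) and 7 with library totals alone. The members' summed CPM differed by -1056 (old mean minus young mean), and by -1400.1 to -765 when 1 library was omitted. This fall was that of miR-7a-5p. Without it the sum was 711 ± 73.3 CPM in young and 811 ± 156 CPM in old vesicles (SD, 3 libraries per group).

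Same-numbered young and old libraries did not deviate together (correlation across identifiers of -0.088, 0.019 and -0.129 for numbers 1, 2 and 3), and none of the 6 libraries correlated best with its own number. With 3 libraries per group, these values cannot settle whether libraries were paired. A replicate block called 17 identifiers and no member. Depth limits miR-7b-5p and miR-132-3p, with 49 and 26 counts in all, and single-copy shares of miR-124-3p.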
